A study of Mus musculus with 3 samples.

Results

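TRBV13-1 clonotypes are T-cell receptor (TCR) beta chains built with the V gene TRBV13-1, the gene of the Vβ8.3 chain. A clonotype here is 1 row of a library's table, that is, 1 nucleotide sequence of the third complementarity-determining region (CDR3) with its best matching V, D and J gene. The members were chosen by the authors' best V and J calls, and every clonotype called TRBV13-1 with a TRBJ gene was kept. There were 5577 of 44807 TRB clonotypes in CD4, 7448 of 81212 in CD8 and 7703 of 41948 in double-negative (DN) T cells, 20728 of 167967 in all. Counting a clonotype once when it was listed in several libraries left 18383 distinct clonotypes of 154480.

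A TCR beta chain is assembled in the thymus from a V, a D and a J gene segment. The V segment encodes the CDR1 and CDR2 loops, which mostly touch the MHC molecule, while the joint, where bases are trimmed and added at random, encodes the CDR3, which mostly touches the peptide. The TRBD2 segment lies downstream of the TRBJ1 cluster, so by deletional joining it is used with TRBJ2 genes, whereas TRBD1 can join either cluster. In the RefSeq gene list of GRCm38.p6, Trbv13-1 lies between Trbv12-1 and Trbv12-2 in a stretch that also holds its relatives Trbv13-2 (Vβ8.2) and Trbv13-3 (Vβ8.1). Mice with the lpr defect in the death receptor Fas accumulate TCRαβ cells that carry neither CD4 nor CD8, the DN T cells.

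The spleen of 1 MRL.lpr mouse, 16 weeks old and with no treatment named, gave the 3 sorted subsets, and the mRNA of 1000000 cells of each made its library. All 3 subsets therefore shared the strain, the lpr background, the animal and the age, and there was no mouse without lpr. The tables hold only TCR transcripts, so the sorted identities could not be checked against CD4 or CD8 transcripts. With 1 library per subset there was no replicate check, no test was applied, and each difference below is between libraries. The 95% intervals are Wilson intervals for shares, ratio intervals for ratios of shares and normal approximations for differences of shares. These cover counting error only. The intervals of reads per clonotype and of mean length come from the spread over the clonotypes of a library. The reads carry no molecular identifiers, so they do not count single molecules.

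The CDR3 sequences below are those of the largest TRBV13-1 clonotypes, which carry the read counts of the later comparisons. Each runs 5′ to 3′ from the codon of the conserved cysteine to that of the conserved phenylalanine, in lower case where it matches the common start of TRBV13-1 clonotypes (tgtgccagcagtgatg) or the common end of its J gene. Capitals mark the middle, the bases between those ends. The ends were derived from the clonotypes themselves, without a germline sequence, so a border can be off by about 1 base.
Clone 1 (TRBJ2-4, TRBD2): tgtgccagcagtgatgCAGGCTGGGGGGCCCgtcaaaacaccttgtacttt
Clone 2 (TRBJ2-1, no D called): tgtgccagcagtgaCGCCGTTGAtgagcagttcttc
Clone 3 (TRBJ2-7, no D called): tgtgccagcagtgatgatgaacagtacttc
Clone 4 (TRBJ2-1, TRBD2): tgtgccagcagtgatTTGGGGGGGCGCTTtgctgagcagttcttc
Clone 5 (TRBJ2-2, TRBD1): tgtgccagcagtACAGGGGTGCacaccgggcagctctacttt
Clone 6 (TRBJ1-3, TRBD2): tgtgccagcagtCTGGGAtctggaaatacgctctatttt
Clone 7 (TRBJ2-7, TRBD1): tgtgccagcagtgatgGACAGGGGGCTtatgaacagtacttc
Clone 9 (TRBJ2-7, TRBD2): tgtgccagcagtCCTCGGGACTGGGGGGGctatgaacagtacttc
Clone 10 (TRBJ2-4, TRBD2): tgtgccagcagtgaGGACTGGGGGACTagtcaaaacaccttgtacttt

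Clones 1 to 5 were the 5 largest of the DN library, clones 6 and 7 the 2 largest of CD8, and clones 9 and 10 the 2 largest of CD4. Clone 3 had 0 middle bases, its CDR3 of 10 residues being read entirely from the common V start and J end. From CDR3 position 5 on, counting the cysteine as position 1, clone 1 reads aspartate, alanine, glycine, tryptophan, glycine, alanine, arginine and glutamine, while clone 9 reads proline, arginine, aspartate, tryptophan, glycine and glycine.

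The second set shows the CDR3 amino acid sequence that the most nucleotide sequences encoded, through the 3 of its 10 versions with the most DN reads, and below them the leading version of the next, which 9 nucleotide sequences encoded. All versions of the first read aspartate, tryptophan, glycine and glycine from position 5 and joined TRBJ2-7 with TRBD2 called. Those of the second read aspartate, arginine, glycine and asparagine and joined TRBJ1-1 with TRBD1 called.
Convergent CDR3 1, version a: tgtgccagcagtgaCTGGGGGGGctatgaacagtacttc
Convergent CDR3 1, version b: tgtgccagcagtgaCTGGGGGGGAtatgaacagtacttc
Convergent CDR3 1, version c: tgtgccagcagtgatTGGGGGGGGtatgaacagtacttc
Convergent CDR3 2, leading version: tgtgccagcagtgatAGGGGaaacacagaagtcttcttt

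The libraries held 133667 TRB reads in CD4 and 150874 in CD8, against 194290 in DN T cells, so a count of 0 allows a share of up to 0.00224%, 0.00199% and 0.00154%, respectively. The largest DN clonotypes recurred in the CD8 library at a nearly fixed fraction of their DN share. For the 20 largest in-frame TRBV13-1 clonotypes of DN this fraction had a median of 21.1% (quartiles 18.7% and 22.9%), and for the 20 largest with other V genes the median was 18.9%. Clonotypes held by cells of both subsets and carry-over of cells or reads between sorts or libraries cannot be told apart in these counts, so the results that rest on them are also given for clonotypes listed in 1 library alone, a setting chosen after the data were seen.

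By reads, TRBV13-1 ranked first among the V genes of DN T cells and second in the other 2 libraries. Its 17922 CD4 reads, 19012 CD8 reads and 39677 DN reads were 13.4% (interval 13.2% to 13.6%), 12.6% (12.4% to 12.8%) and 20.4% (20.2% to 20.6%) of all TRB reads. The order from lowest to highest was therefore CD8, CD4 and DN, with CD8 and CD4 close together and DN well above both. More cells with the gene and more TRB transcript per cell cannot be told apart in such shares. The DN share was 1.62 times the CD8 share (1.59 to 1.65) and 1.52 times the CD4 share (1.5 to 1.55). In DN T cells the next gene, TRBV1, held 11.9%. In CD4 TRBV13-1 followed TRBV13-2, which held 14.6%, and in CD8 it followed TRBV13-3, which held 14.9%.

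Counted by clonotypes rather than reads, CD4 and CD8 T cells moved apart. TRBV13-1 made up 12.4% of the clonotypes in CD4 (12.1% to 12.8%) and 9.17% in CD8 (8.97% to 9.37%), against 18.4% in DN T cells (18% to 18.7%), so that the DN share was 2.0 times the CD8 share (1.94 to 2.06). A single clonotype bore on the read share in CD8. Without clone 6, which held 3260 CD8 reads, TRBV13-1 had 10.7% of the CD8 reads and the DN share was 1.91 times as large. Among clonotypes listed in 1 library alone, TRBV13-1 held 12.7% of the reads in CD4 and 8.10% in CD8, against 18.6% in DN T cells, and the ratio of DN to CD8 was 2.30. Clonotypes whose CDR3 and J gene had another V call elsewhere stayed in this setting, so it did not remove every shared sequence.

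**Figure D1:**
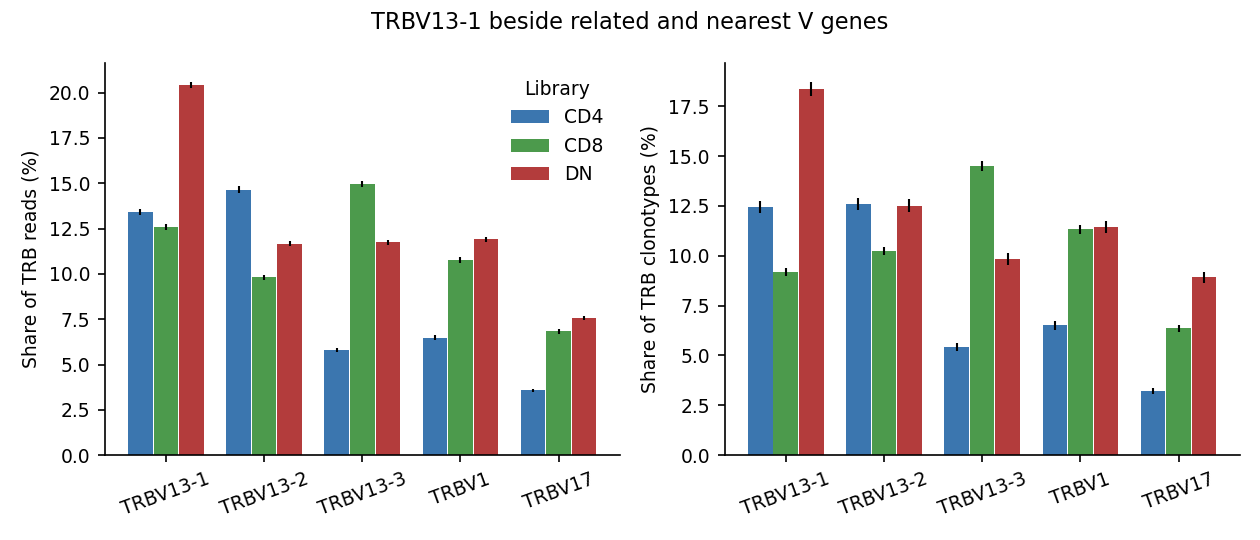
The bars show the share of TRB reads (left, percent) and of TRB clonotypes (right, percent) of TRBV13-1, its relatives TRBV13-2 and TRBV13-3, and TRBV1 and TRBV17 in the CD4, CD8 and DN libraries, and the error bars show 95% Wilson intervals. TRBV13-1 reached 20.4% of the reads in DN T cells against 13.4% in CD4 and 12.6% in CD8, while TRBV13-3 was highest in CD8 at 14.9%.

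The relatives of TRBV13-1 were distributed differently. Set against CD8, the DN share of TRBV13-2 was 1.19 times as high, and against CD4 it was 0.798 times as high. For TRBV13-3 these ratios were 0.786 and 2.02. Of the V genes with at least 1% of the reads in each library, the 3 nearest to TRBV13-1 in their log2 ratios of DN to CD8 and DN to CD4 were TRBV1 (distance 0.61), TRBV17 (0.73) and TRBV13-2 (1.03), over 12 other genes and 3 libraries. TRBV1 held 6.48% of the reads in CD4 and 10.8% in CD8, against 11.9% in DN T cells, and TRBV17 held 3.57%, 6.82% and 7.58%.

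The split between TRBV13-1 and TRBV13-3 rested on the V call, since each nucleotide CDR3 was listed once per library with a single V gene and both genes shared their CDR3 start. The stretch tgtgccagcagtgat opened 37.6% of the distinct TRBV13-1 clonotypes, 29.96% of those of TRBV13-3 and 0.0571% of those of TRBV13-2. Of 1724 TRBV13-1 clonotypes of DN whose CDR3 and J gene occurred in CD8, 1396 were called TRBV13-1 there too (81.0%) and 250 were called TRBV13-3 (14.5%, interval 12.9% to 16.2%). In the opposite direction, 69 of 1489 TRBV13-1 clonotypes of CD8 found in DN were called TRBV13-3 there (4.63%). The share was highest for TRBV13-1 clonotypes of CD4 looked up in CD8, of which 594 of 862 kept the call (68.9%) and 210 were called TRBV13-3 (24.4%, interval 21.6% to 27.3%). For DN clonotypes looked up in CD8 the disagreement fell with clone size, from 119 of 461 with 1 read to 0 of 42 with 100 reads or more. For CD8 clonotypes looked up in DN it was 4.42% with 1 read and 5.20% with 2 to 9 reads. With TRBV13-1 and TRBV13-3 counted together, a setting chosen after the data were seen, the DN share was 1.17 times the CD8 share and 1.67 times the CD4 share.

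TRBV13-1 joined all 12 J genes that were tested, and TRBJ2-7 was the most frequent partner in each library. TRBJ2-7 was joined in 17.5% of the TRBV13-1 clonotypes in CD4 (16.5% to 18.5%) and in 23.2% in CD8 (22.2% to 24.2%), against 26.4% in DN T cells (25.4% to 27.4%). The 3 intervals did not overlap, and the order was CD4, CD8, DN. The other V genes ran in the same order with 17.5%, 21% and 22.6%, which left the TRBV13-1 share 1.17 times as high as theirs in DN T cells (1.12 to 1.22), 1.11 times in CD8 (1.06 to 1.16) and 1.00 times in CD4 (0.944 to 1.07). Among clonotypes listed in 1 library alone, TRBJ2-7 was joined to TRBV13-1 in 16.0%, 22.0% and 25.7%.

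TRBJ2-5 had the lowest share relative to other V genes in each library. It was joined in 10.02% of the TRBV13-1 clonotypes in CD4 against 12.3% with other V genes, in 9.60% against 13.7% in CD8, and in 8.75% against 12.7% in DN T cells. The corresponding ratios were 0.815 (0.750 to 0.886), 0.699 (0.650 to 0.751) and 0.689 (0.638 to 0.744). TRBJ1-1 lay on the other side, with ratios of 1.06 in CD4 and 1.23 in CD8, against 1.24 in DN T cells (1.15 to 1.34). TRBJ1-4 was joined more often than by other V genes in CD4, at a ratio of 1.17 (1.07 to 1.28), and less often in DN T cells, at 0.791 (0.715 to 0.876).

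A V-J pair was called high when its share was at least 25% above that of the other V genes and low when it was at least 20% below. TRBV13-1 had 0 high J genes of 12 in CD4, where 8.38% of all 191 V-J pairs were high, 0 in CD8, where 9.91% of 212 were, and 0 in DN T cells, where 11.2% of 178 were. It had 0 low J genes in CD4 beside 19.4% of all pairs, 1 in CD8 (TRBJ2-5) beside 18.4%, and 2 in DN T cells (TRBJ2-5 and TRBJ1-4) beside 19.1%. With ratios between 0.689 and 1.24 over the 3 libraries, TRBV13-1 was thus called no more often than V genes in general.

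As a cluster, TRBJ2 was joined in 61.5% of TRBV13-1 clonotypes in CD4 and 67.1% in CD8, against 69.9% in DN T cells. Other V genes had 64.3%, 69.8% and 71.0%, so the difference of TRBV13-1 from them was -2.85 percentage points in CD4 (-4.22 to -1.49), -2.73 in CD8 (-3.85 to -1.61) and -1.09 in DN T cells (-2.23 to 0.04). Weighted by reads the picture in CD8 changed, since clone 6 joined TRBJ1-3. TRBJ1-3 then held 20.1% of the TRBV13-1 reads with this clonotype and 3.58% without it, and TRBJ2 held 57.7% with it and 69.7% without it.

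**Figure D2:**
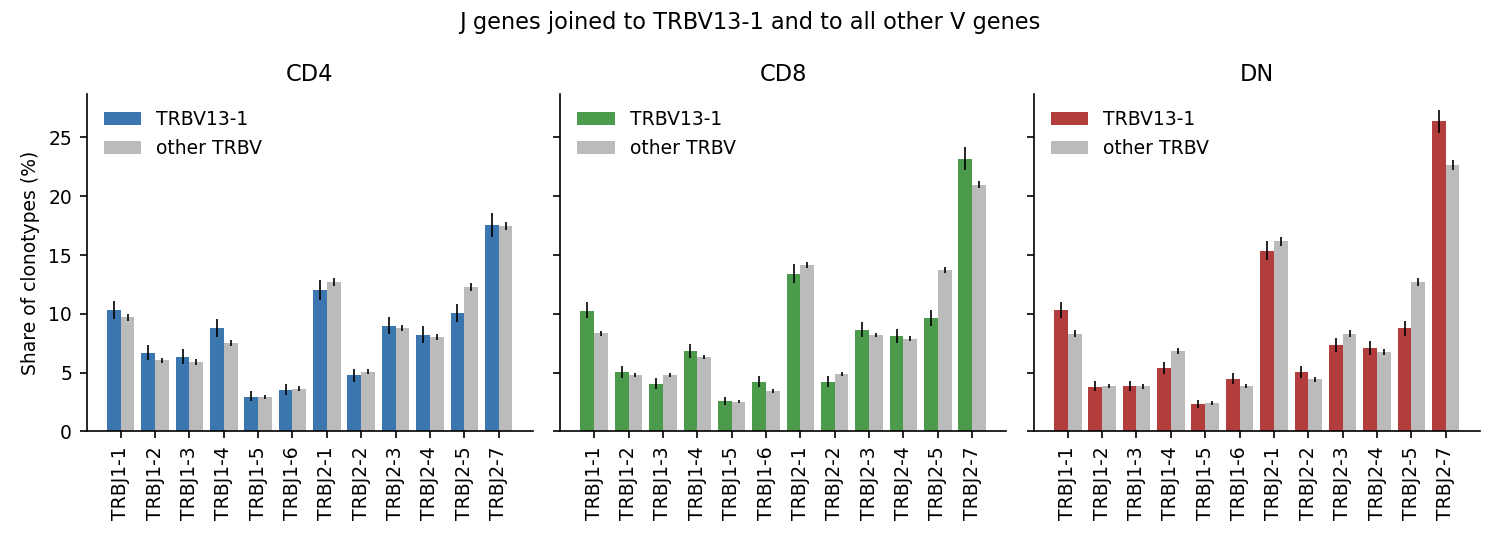
The bars give the share of clonotypes (percent) that joined each TRBJ gene, for TRBV13-1 (coloured) and for all other V genes (grey), in the CD4, CD8 and DN libraries, and the error bars show 95% Wilson intervals. TRBJ2-7 went from 17.5% of TRBV13-1 clonotypes in CD4 to 26.4% in DN, and TRBJ2-5 was lower for TRBV13-1 than for other V genes in each library.

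The D gene call shifted from TRBD1 in CD4 to TRBD2 in DN T cells. TRBD2 was called in 28.9% of the TRBV13-1 clonotypes in CD4 (27.8% to 30.1%) and 33.4% in CD8 (32.4% to 34.5%), against 41.6% in DN T cells (40.5% to 42.7%), while TRBD1 was called in 46.6%, 40.1% and 35.1%. Between 23.4% and 26.5% had no D call. The clonotypes of other V genes showed nearly the same TRBD2 shares, 29.6%, 32.6% and 39.7%.

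Most of the TRBD2 calls lay in joints to TRBJ2. Among TRBJ2 clonotypes of TRBV13-1, TRBD2 was called in 43.3% in CD4 and 46.7% in CD8, against 56.4% in DN T cells (55% to 57.7%). Among its TRBJ1 clonotypes, where TRBD2 is not joined by deletion, it was still called in 129 of 2149 in CD4, 154 of 2450 in CD8 and 169 of 2321 in DN T cells (6.0%, 6.29% and 7.28%), and for other V genes in 5.09% to 6.20%. These shares show how often the short D segment was called in a joint where it is not normally used. Clone 6 was 1 of these clonotypes, with a middle of only 6 bases.

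CDR3s of TRBV13-1 were longest in DN T cells and shortest in CD8. Their mean length was 13.96 residues in CD4 (SD over 5294 in-frame clonotypes 1.37) and 13.83 in CD8 (SD 1.51, 7111 clonotypes), against 14.06 in DN T cells (SD 1.49, 7318 clonotypes), and 14 residues was the most common length in all 3 libraries. The mean in DN exceeded that in CD8 by 0.237 residues (0.188 to 0.286) and that in CD4 by 0.107 (0.0570 to 0.157). These differences are small beside the spread between clonotypes of a library. For the other V genes DN exceeded CD8 by 0.324 residues (0.303 to 0.344) and CD4 by 0.339 (0.316 to 0.362), so the step from CD4 to DN was smaller for TRBV13-1. Weighted by reads, the difference between DN and CD8 was 0.496 residues, and clone 6, with 13 residues, held 17.1% of the TRBV13-1 reads in CD8. With at least 2 reads per clonotype it was 0.358 residues.

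The libraries also differed in their short and long CDR3s. CDR3s of 11 residues or fewer made up 3.74% of the TRBV13-1 clonotypes in CD4 and 7.27% in CD8, against 5.30% in DN T cells, and those of 16 or more made up 11.4%, 12.2% and 15.4%. Other V genes had 5.30%, 5.90% and 4.19% short and 12.1%, 13.3% and 18.6% long CDR3s. In DN T cells TRBV13-1 thus had more short and fewer long CDR3s than other V genes. The middle held on average 10.5 bases in CD4 (SD 4.28) and 10.2 in CD8 (SD 4.31), against 11 in DN T cells (SD 4.54), while the V part held 13.4 to 13.7 bases and the J part 17.6 to 18.

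Between 94.9% and 95.5% of the TRBV13-1 clonotypes had an open reading frame. For the other V genes this share was 91.8% in CD4 and 95.1% in CD8, against 90.1% in DN T cells. The largest out-of-frame TRBV13-1 clonotype had 19 reads in CD4 and 9 in CD8, against 31 in DN T cells, and so none of the large clonotypes was out of frame.

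**Figure D3:**
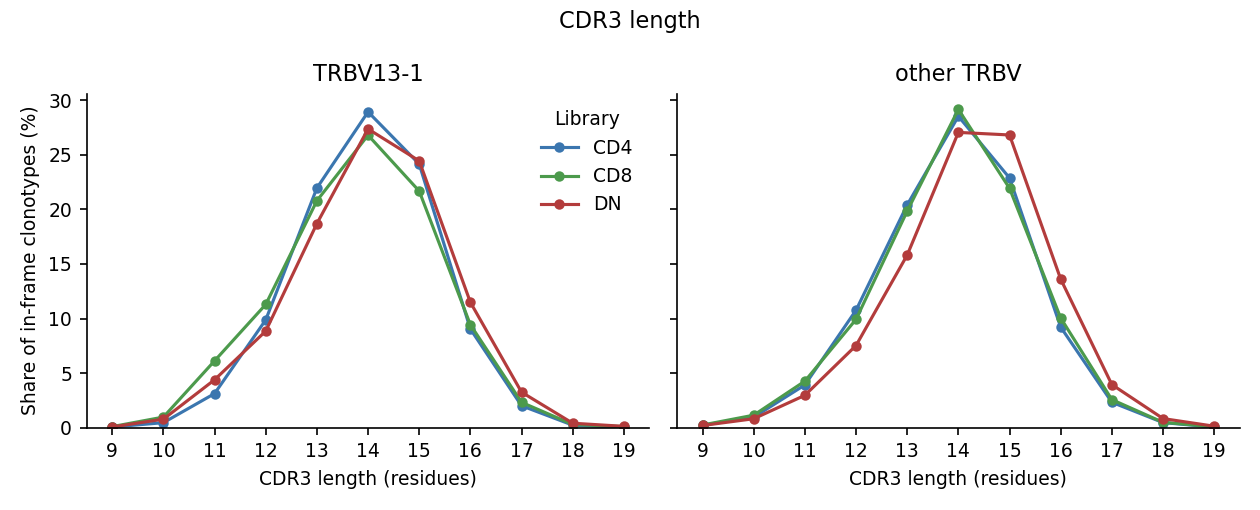
The lines give the share of in-frame clonotypes (percent) at each CDR3 length (residues, 9 to 19) for TRBV13-1 (left) and all other V genes (right) in the CD4, CD8 and DN libraries. All curves peak at 14 residues, and for TRBV13-1 the CD8 curve is highest at 11 residues and the DN curve highest at 16.

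Residues were compared over in-frame CDR3s of 11 to 18 residues. At position 5, where the V-encoded part ends, aspartate stood in 43.0% of TRBV13-1 clonotypes in CD4 (41.6% to 44.3%) and 52.6% in CD8 (51.4% to 53.7%), against 50.7% in DN T cells (49.6% to 51.9%). Other V genes had it there in 14.1% to 16.7%. Its codon, gat, closes the stretch tgtgccagcagtgat, with which 37.6% of the distinct TRBV13-1 clonotypes began. Glutamate stood there in another 11.5% to 12.7%. CD4 thus lay below the other 2 libraries, which overlapped.

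Tryptophan in the CDR3 separated all 3 libraries. From position 5 on, it was present in 667 of 5294 TRBV13-1 clonotypes in CD4 (12.6%, interval 11.7% to 13.5%), 1291 of 7111 in CD8 (18.2%, 17.3% to 19.1%) and 2236 of 7318 in DN T cells (30.6%, 29.5% to 31.6%). The other V genes had 12.3%, 15.3% and 27.2%, in the same order, and TRBV13-1 lay above them in CD8 and DN T cells. Among clonotypes listed in 1 library alone the TRBV13-1 shares were 10.1%, 14.8% and 30.1%.

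Most of the TRBV13-1 clonotypes with tryptophan had a TRBD2 call, and TRBD2 is known to encode this residue in a reading frame. In clonotypes called TRBD2 tryptophan was present in 35.4% in CD4 (33% to 37.8%) and 45.8% in CD8 (43.7% to 47.8%), against 61.5% in DN T cells (59.7% to 63.2%), beside 32.5%, 37.0% and 54.7% for other V genes. Counted by clonotypes, the order CD4, CD8, DN thus held within TRBD2 too. Weighted by reads, TRBD2 clonotypes had 38.3% in CD4 and 32.4% in CD8, against 65.1% in DN T cells, and the CD8 value was 53.0% without clone 6, which has no tryptophan. In clonotypes called TRBD1 the shares were 3.33%, 4.92% and 8.25%. With clone size, from 1 read over 2 to 9 and 10 to 99 to 100 or more, DN T cells had it in 29.3%, 31.6%, 34% and 38.1%, where the interval of the last (25% to 53.2%) included the first. In CD8 it was 17.1%, 19.7%, 26.5% (20.4% to 33.7%) and 1 of 6 clonotypes. In CD4 it was 13.4%, 11.8%, 7.88% (5.11% to 12%) and 4 of 17 clonotypes. From 1 read to 10 to 99 reads it thus went up in CD8 and down in CD4, in both cases without overlap of the intervals. Of the CD8 clonotypes with 10 to 99 reads, 131 of 166 were also listed in DN, against 12.2% of those with 1 read. Tryptophan was present in 33.7% of clonotypes listed in DN and CD8 alone and in 14.8% of those of CD8 alone. Whether the rise in CD8 rests on clonotypes shared with DN was not tested.

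**Figure D4:**
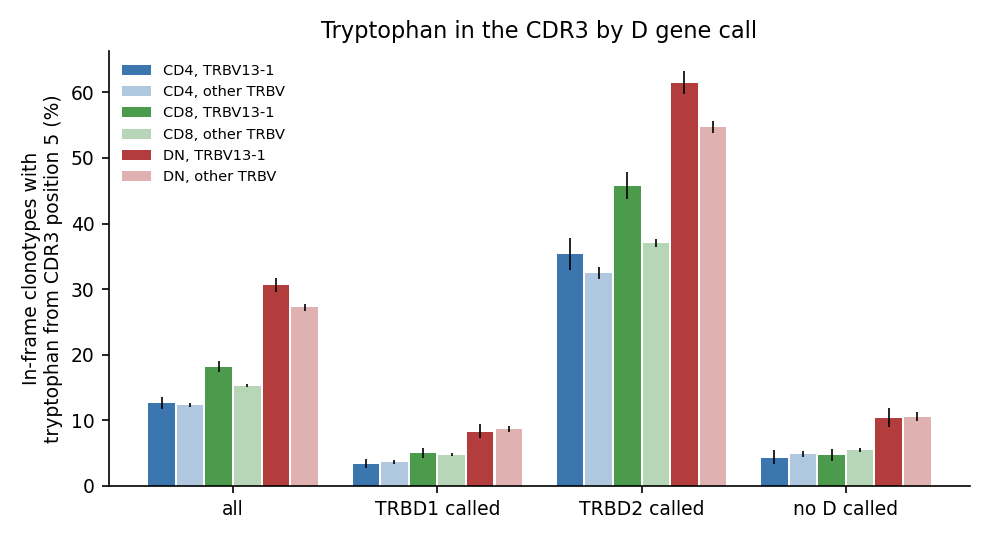
The bars give the share of in-frame clonotypes (percent) with tryptophan from CDR3 position 5 on, for all clonotypes and by D gene call, in the CD4, CD8 and DN libraries, with TRBV13-1 in full colour, other V genes in pale colour and 95% Wilson intervals as error bars. For TRBV13-1 with TRBD2 called the CD4, CD8 and DN bars reach 35.4%, 45.8% and 61.5%.

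Hydrophobic residues (phenylalanine, isoleucine, leucine, methionine, valine, tryptophan and tyrosine) at positions 6 and 7, which lie at the apex of the loop, followed the same order by clonotypes. They filled 12.8% of these positions in CD4 (12.2% to 13.5%) and 16.3% in CD8 (15.7% to 16.9%), against 19.9% in DN T cells (19.2% to 20.5%). The DN share exceeded the CD8 share by 3.54 percentage points (2.65 to 4.44). Other V genes had 13.1%, 15.4% and 19.9%, so the DN value of TRBV13-1 did not stand apart. Tryptophan alone filled position 7 in 4.68%, 7.43% and 12.6% of the TRBV13-1 clonotypes, and leucine filled it in 3.0%, 4.36% and 4.50%. At CDR3s of 14 residues only, the excess of DN over CD8 was 4.73 points. Weighted by reads it was 8.60 points, and without clone 6 the read-weighted CD8 share was 17.0% in place of 14.0%, beside 14.8% in CD4 and 22.6% in DN T cells. By reads CD8 thus lay below CD4 with this clonotype and above it without.

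Over all clonotypes, TRBV13-1 had the most reads per clonotype in DN T cells. It had 3.21 reads per clonotype in CD4 and 2.55 in CD8, against 5.15 in DN T cells, beside 2.95, 1.79 and 4.51 for other V genes. The DN value was 2.02 times the CD8 value (1.41 to 2.89), and at an equal depth of 133667 TRB reads the values were 3.21, 2.45 and 4.39. Clonotypes with 1 read made up 60.2% of TRBV13-1 in CD4 and 65.9% in CD8, against 55.1% in DN T cells. TRBV13-1 clonotypes with 100 reads or more numbered 17 of 5577 in CD4, 6 of 7448 in CD8 and 42 of 7703 in DN T cells. Other V genes had 68 of 39230, 29 of 73764 and 173 of 34245. These counts were not set to an equal depth. The order of reads per clonotype did not hold among clonotypes listed in 1 library alone. These had 2.43 reads each in CD4, 1.51 in CD8 and 1.83 in DN, so that DN lay 1.21 times above CD8 but below CD4. That setting selects on clone size, since 42 of 42 DN clonotypes with 100 reads or more were listed in CD8 too. It therefore cannot decide the order of clone sizes. Clonotypes listed in another library too had 7.02, 6.29 and 16.4 reads each.

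The 10 largest TRBV13-1 clonotypes held 9.87% of its reads in CD4 and 23.3% in CD8, against 13.1% in DN T cells. In CD8 clone 6 alone held 17.1% of them, and without it the 10 largest held 7.68%. The number of largest clonotypes that together reached 50% of the TRBV13-1 reads was 350 in CD4 and 574 in CD8, against 218 in DN T cells. The DN library thus had many TRBV13-1 clonotypes of middle size, with 596 of 10 reads or more that held 65.7% of its TRBV13-1 reads. Other V genes were alike in DN, where 2291 clonotypes of 10 reads or more held 61.0% of their reads. The CD8 library had 1 very large TRBV13-1 clonotype above a long tail of small ones. Of the 100 largest TRB clonotypes of a library, 21 were TRBV13-1 in CD4 and 11 in CD8, against 19 in DN T cells, beside TRBV13-1 shares of 12.4%, 9.17% and 18.4% of all clonotypes.

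Of the 18383 distinct TRBV13-1 clonotypes, 368 were listed in all 3 libraries, 1028 in DN and CD8 alone, 355 in DN and CD4 alone and 226 in CD8 and CD4 alone. A clonotype counted as shared when its nucleotide CDR3, V and J gene were the same. DN and CD8 had 1396 in common, which were 18.1% of the DN and 18.7% of the CD8 clonotypes. DN and CD4 had 723 in common (9.39% and 13%), and CD8 and CD4 had 594 (7.98% and 10.7%). The shared clonotypes were large in DN T cells, where those shared with CD8 held 68.8% of the TRBV13-1 reads and those shared with CD4 held 51.9%. For other V genes these DN read shares were close by, at 66.0% and 48.7%. Of their clonotypes, DN and CD8 had 18.6% of the DN and 8.64% of the CD8 ones in common. DN and CD4 had 8.85% and 7.73%. These counts include any carry-over between the libraries.

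Per possible pair of clonotypes, DN shared 1.45 times as many TRBV13-1 clonotypes with CD8 as with CD4 (1.32 to 1.58). For single relatives the same ratio was 1.32 for TRBV13-2 and 0.490 for TRBV13-3. Pooled over all other V genes it was 1.12 (1.07 to 1.17). The possible pairs of that pool also join different V genes, which cannot be shared, so it is not a like measure. The TRBV13-1 ratio moved with the V call and the depth of support. A TRBV13-1 clonotype of DN that could match any V gene gave 1.19 (1.10 to 1.30), and 2 reads or more in every clonotype gave 2.11.

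Sharing rose with clone size in every pair of libraries. Of the DN clonotypes with 1 read, 7.14% were listed in CD8 and 3.58% in CD4. Of those with 10 to 99 reads, 81.9% were listed in CD8 (78.5% to 84.9%) and 44.9% in CD4 (40.9% to 49.1%), and of the 42 with 100 reads or more, 42 were listed in CD8 and 40 in CD4. Other V genes gave 81.9% and 44.4% at 10 to 99 reads. In the opposite direction the outcome was different, since of the 17 CD4 clonotypes with 100 reads or more, 8 were listed in DN (interval 26.2% to 69.0%) and 15 in CD8. Other V genes had 47 of 68 such CD4 clonotypes listed in DN and 56 of 68 in CD8.

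The shared clonotypes differed in the CDR3 according to where they were found. Tryptophan was present in 32.9% of the TRBV13-1 clonotypes listed in all 3 libraries, 33.7% of those in DN and CD8 alone and 26.1% of those in DN and CD4 alone, but in 6.70% of the 226 in CD8 and CD4 alone. Those 226 also had the shortest CDR3s, with a mean of 13.52 residues (SD 1.33) and a middle of 8.54 bases (SD 3.87), beside 11.3 bases in clonotypes of DN alone. Other V genes had a like pattern, with tryptophan in 29.1%, 27.5%, 23.2% and 11.1% of these 4 classes. Their clonotypes in CD8 and CD4 alone also had the shortest CDR3s, with a mean of 13.52 residues. Between 98.3% and 99.2% of the TRBV13-1 clonotypes listed in more than 1 library were in frame, against 93.9% to 94.5% of those listed in 1 library alone. For other V genes these ranges were 93.4% to 98.3% and 88.6% to 94.9%.

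The largest individual clonotypes showed what these counts were made of. Clone 1 had 1374 reads in DN, 225 in CD8 and 62 in CD4, and it was the largest TRB clonotype of the DN library. Clone 2 had 1212, 175 and 57 reads, and clone 3, without middle bases, had 647, 135 and 20. All 3 were highest in DN, lower in CD8 and lowest in CD4. Their CD8 shares were 21.1%, 18.6% and 26.9% of their DN shares. Clone 4 (379, 63 and 19 reads) and clone 5 (289, 42 and 6 reads) had the same order.

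Of the 20 largest in-frame TRBV13-1 clonotypes of DN T cells, 20 were listed in CD8, at 8.41% to 26.9% of their DN share, and 19 in CD4, at a median of 4.0%. Of the 20 largest in CD8, 19 were listed in DN, and 12 of these had a larger share of DN reads than of CD8 reads. Those 12 were the clonotypes that ranked among the 20 largest in both libraries. The clones 14 to 19 and 21, which complete this group beside clones 1 to 5, had 185 to 274 reads in DN, 36 to 53 in CD8 and 2 to 9 in CD4. For the 42 DN clonotypes with 100 reads or more, the CD8 share had a median of 19% of the DN share (quartiles 15.1% and 21.4%) and 0 had a larger share in CD8.

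Clones 6 to 8, among the 5 largest of CD8, and clones 9 to 13, the 5 largest of CD4, behaved otherwise. Clones 1 and 2, described above, ranked 3 and 4 in CD8. Clone 6 had 3260 reads in CD8, 75 in DN and 54 in CD4, and it was the largest TRB clonotype of the CD8 library. Clone 7 had 258 reads in CD8, 1 in DN and 3 in CD4, and clone 8 (TRBJ1-5, no D called, leucine and threonine followed by 3 asparagines from position 5) had 150, 26 and 4. Of the CD4 clones, clone 9 had 277 CD4 reads, 13 CD8 reads and 57 DN reads. Clone 10 had 226 CD4 reads, 1 CD8 read and 0 DN reads, which allows a DN share of up to 0.00154%. Clone 11 had 209, 4 and 0 reads in the same order, and clone 13 had 163, 1 and 0. Clone 12, which carried aspartate, methionine and a pair of glycines, had 180 CD4 reads, 10 CD8 reads and 116 DN reads. Clone 20 was the only TRBV13-1 clonotype among the 20 largest of both DN and CD4, with 193 and 99 reads, and it had 34 in CD8.

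**Figure D5:**
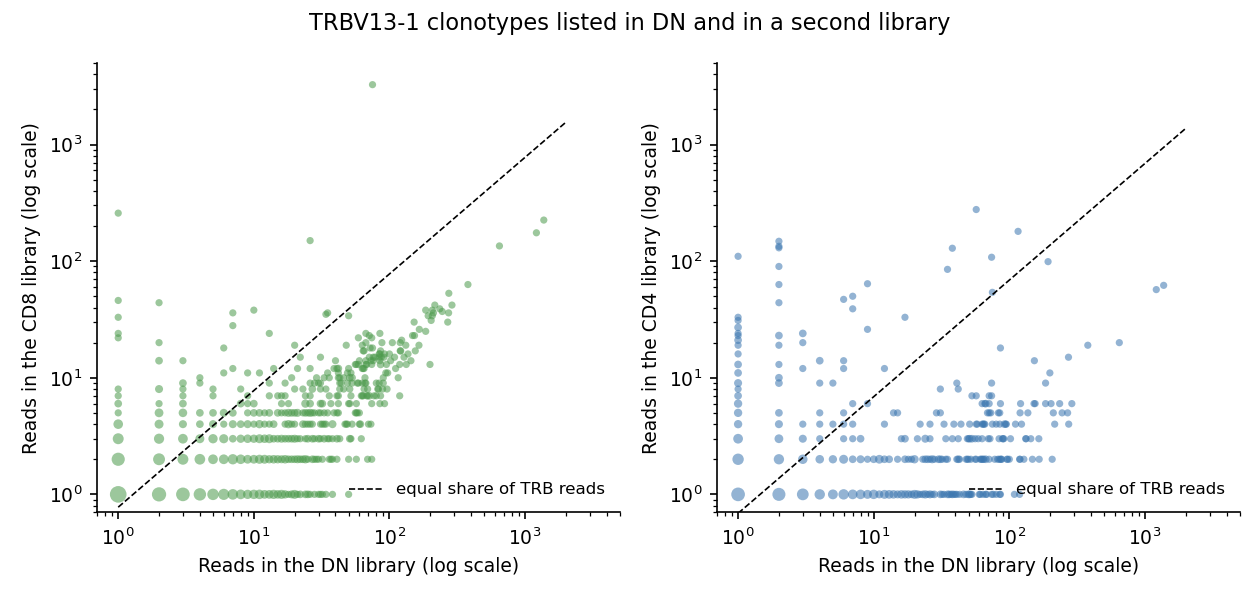
Each point is a pair of read counts held by TRBV13-1 clonotypes listed both in DN (horizontal, log scale) and in CD8 (left) or CD4 (right, both vertical, log scale), with larger points for more clonotypes, and the dashed line marks an equal share of TRB reads. Large DN clonotypes lie in a narrow band below the line against CD8, such as clone 1 with 1374 and 225 reads, and scatter more widely against CD4.

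Different nucleotide sequences often encoded the same CDR3. Over the 3 libraries, 1489 of 15398 TRBV13-1 amino acid CDR3s with a given J gene were encoded by at least 2 nucleotide sequences (9.67%, interval 9.21% to 10.1%), against 8.47% for other V genes. Within libraries the share was 5.07% in CD4 and 6.46% in CD8, against 7.28% in DN T cells (6.68% to 7.93%), and for other V genes 5.31%, 6.84% and 4.59%. DN T cells were the library in which TRBV13-1 exceeded the other V genes. It also had the most clonotypes of any V gene there, with 7703, followed by TRBV13-2 with 5250. The shares were not set to an equal number of clonotypes per V gene. Whether clonotype number accounts for the DN excess was not tested. These shares were not recomputed after merging 1-base neighbours with 10 times fewer reads. Such neighbours made up 3.06% of the TRBV13-1 clonotypes in DN T cells, 1.45% in CD8 and 1.70% in CD4. Whether they account for the DN excess was not tested.

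Convergent CDR3 1, with aspartate, tryptophan, glycine and glycine, summed to 224 reads from 7 sequences in DN, 23 from 6 in CD8 and 14 from 4 in CD4, which were 0.115%, 0.0152% and 0.0105% of the TRB reads. Its version a had 95 reads in DN, 13 in CD8 and 4 in CD4, version b had 74, 2 and 7, and version c had 31, 0 and 1. Some of its smaller versions differed from a larger one by a single base and had 1 read, and whether these were read errors was not tested. Convergent CDR3 2 summed to 31 reads in DN, 20 in CD8 and 2 in CD4. Matched by amino acid CDR3 and J gene, DN and CD8 had 1642 TRBV13-1 CDR3s in common (24.4% and 24.9%), DN and CD4 920 (13.7% and 18.4%), and CD8 and CD4 832 (12.6% and 16.7%).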

How the data were processed

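TCR libraries were prepared with the Takara SMARTer Mouse TCRα/β kit, and the authors aligned the reads, assembled clonotypes and exported them with MiXCR, whose version and settings are not given in the sources used here. The deposited tables give each clonotype's count of reads, not normalized, and a fraction, which the authors' tables set to the count divided by the table's total. Counts have no molecular identifiers, so amplification moves them.

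TRB clonotypes were used without a filter on reads or frame. Shares were taken over TRB reads or clonotypes, with 95% Wilson intervals, in Python 3.11.15 with NumPy 2.4.6, pandas 2.3.3 and SciPy 1.17.1, and plotted with matplotlib 3.10.9. No test was run, since each subset had 1 library. J pairing compared a V gene with all other V genes where at least 20 clonotypes were expected. Common CDR3 ends were extended while 65% of matching clonotypes kept the next base and 10% of all carried the whole end. Code was tested on simulated data. TRBV13-1 and all lists were chosen with earlier results of these data known. Clonotypes were named if among the 5 largest in-frame ones of a library, or the 20 largest of more than 1, and CDR3s if among the 2 most convergent. Alternatives covered frame, 2 reads, merging of 1-base neighbours with 10 times fewer reads, the 10 largest clonotypes, reads against clonotypes, and clonotypes with 100 times more reads elsewhere.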

Additional observations from a re-analysis of the deposited data

How the results depend on the processing

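With 11 results and 69 alternatives, 47 values stayed within the range of the reported value, 22 moved outside, and 0 called values changed sign. That range was the 95% interval for most results. For the median CD8 share it was the quartiles, and for the number of called V-J pairs it was within 1.5 times of the value. The DN to CD8 ratio of TRBV13-1 read shares, 1.62, became 1.65 in frame, 1.40 with at least 2 reads, 1.83 without the 10 largest clonotypes, 2.0 by clonotypes, 1.17 with TRBV13-3 added and 2.30 in clonotypes of 1 library alone. The DN to CD4 ratio, 1.52, became 1.49 without the 10 largest, 1.48 by clonotypes, 1.67 with TRBV13-3 and 1.47 in clonotypes of 1 library alone. Reads per clonotype, DN over CD8, fell from 2.02 to 1.21 in clonotypes of 1 library alone, a setting that selects on clone size. By reads, the TRBJ2 difference from other V genes was -14.1 percentage points in CD8 and 0.93 in DN, where the interval by clonotypes included 0. The length difference, DN minus CD8, was 0.358 residues with at least 2 reads, 0.496 by reads and 0.298 in clonotypes of 1 library alone. The hydrophobic difference was 8.60 points by reads and 4.73 at 14 residues. The sharing ratio was 2.11 with at least 2 reads, 1.19 with any V gene and 1.81 with 2 reads in both libraries over all pairs. The median CD8 share of the largest DN clonotypes was 18.6% of the DN share over the 50 largest. Merging 1-base neighbours removed 95 to 236 TRBV13-1 clonotypes per library and moved no value it was applied to outside its range. It was not applied to the convergent CDR3s. Without the 10 largest, that median used DN ranks 11 to 30. The alternatives with TRBV13-3 or any V gene, with 2 reads in both libraries and with clonotypes of 1 library alone were chosen after seeing the data. No paired analysis was possible because each subset had 1 library. Depth limits what can be seen of sharing among clonotypes with 1 read.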
